A study of Mus musculus with 64 samples.

Results

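In mouse hearts that lack BMAL1 in cardiomyocytes, 5 genes, Spon2, Eln, Angptl7, Adh1 and Aldh1a1, kept a daily swing much like that of wild type littermates. A sixth, Inmt, was chosen with them and also swung in both genotypes. Its gap in peak time was the widest (−1.9 h, knockout minus wild type) but loosely placed. The SE of its peak was 0.8 h in knockout and 1.4 h in wild type hearts. The sign of that gap depended on which sampling times were fitted. The amplitude of Inmt differed by 0.25 ± 0.16 (log2, SE), about as far as that of Angptl7 (−0.23 ± 0.16). These 6 were selected on measured values, namely a fitted amplitude and peak time that were alike in both genotypes, so rhythm itself is described here and not tested. They are 6 of the 16593 gene symbols on the array and are read by 7 of its 25697 probes (Adh1 has 2). All 7 probes were among the 12101 that passed the filter on low signal. The question set by the selection is what else the hearts of the 2 genotypes share or do not share in these genes: the level averaged over the day, any 12 h component, and the way the genes vary between hearts taken at the same time.

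The circadian clock of a cell is a feedback loop in which BMAL1, encoded by Arntl, pairs with CLOCK and activates the Period and Cryptochrome genes, whose proteins then repress it. A gene in the heart can also follow the time of day through signals that reach it from outside, such as glucocorticoid hormones, body temperature, feeding, and nerve activity, and cells of other types in the heart have clocks of their own. Spon2 and Eln encode proteins of the matrix between cells, Angptl7 a secreted protein, and Adh1, Aldh1a1 and Inmt encode enzymes that act on small molecules.

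Whole hearts came from male mice on the C57Bl/6J background fed standard chow freely, with 12 h of light in each 24 h. The knockout mice, named CBK in the labels, lack BMAL1 in cardiomyocytes only. Their littermates served as wild type. Neither the promoter that drives the deletion nor the age of the mice is stated in the labels. Hearts were taken every 3 h at 8 zeitgeber times (ZT, counted in hours since the lights came on), and each genotype has 4 arrays at each time, which makes 32 knockout and 32 wild type arrays. The labels do not say whether samples are separate mice, and the p-values here reflect only how far the samples differ, which may in part be technical. A whole heart holds fibroblasts, endothelial cells and others that keep BMAL1, and in such bulk RNA fewer cells of a type and less RNA per cell cannot be told apart.

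Between 9237 and 10594 probes were detected per knockout array and between 9407 and 10605 per wild type array. Precision is limited by how many arrays there are. A wide spread around the group mean, above 1.5 times that of the median array, marked 4 arrays. They were knockout ZT9 replicates 170 and 206, knockout ZT6 replicate 2 and wild type ZT6 replicate 1. The times fall into sets by sample number, ZT0, 6, 12 and 18 in one and ZT3, 9, 15 and 21 in the other, and values within each set are given beside the pooled ones. The signal of Arntl lay between 6.92 and 7.44 in knockout hearts and between 7.72 and 8.34 in wild type hearts at ZT0 (log2), and between 6.11 and 6.80 in knockout hearts and between 4.99 and 5.47 in wild type hearts at ZT15. Its groups did not overlap at either time. The fitted amplitude of Arntl, the height of the 24 h curve over its mean in log2 units, was 0.59 in knockout and 1.60 in wild type hearts (each ± 0.08, SE). The labels do not place the Arntl probe inside or outside the deleted stretch, so the level in knockout hearts does not check the deletion. Cardiomyocyte markers were present, with 13 of 14 detected.

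Spon2, which encodes spondin 2, a secreted protein of the extracellular matrix that also takes part in innate immunity, had the widest swing of the 6. At ZT3 its normalized signal lay between 9.75 and 10.46 in the 4 knockout hearts, against 9.60, 9.75, 9.87 and 10.15 in wild type hearts (log2). At ZT15 it was 6.95, 7.13, 7.38 and 7.72 in knockout hearts, against 6.73, 6.96, 7.26 and 7.33 in wild type hearts. Every heart at ZT3 lay above every heart at ZT15 in both genotypes, and at each of the 2 times the genotypes overlapped. Both features are favoured by how the genes were chosen, here and for the genes below, and serve as description only. The fitted curve peaked at ZT2.1 in knockout and at ZT1.8 in wild type hearts (each ± 0.3 h, SE). Its amplitude was 1.27 in knockout and 1.41 in wild type hearts (each ± 0.10, SE), which corresponds to a 5.85-fold distance between peak and trough in knockout and a 7.10-fold distance in wild type hearts. Among 8449 named genes, Spon2 held amplitude rank 2 in knockout and rank 5 in wild type hearts. Amplitude was among the values used to choose the genes.

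The times between these extremes show a steep fall in the light phase. At ZT6 Spon2 was still at 9.18, 9.31, 9.41 and 9.85 in knockout hearts and at 8.94, 9.03, 9.25 and 9.79 in wild type hearts. By ZT9 it was at 7.59, 7.76, 8.04 and 8.91 in knockout hearts and at 7.56, 7.58, 7.61 and 7.73 in wild type hearts. At ZT12, 3 knockout hearts lay between 7.33 and 7.40 and replicate 108 at 8.65, against 6.84, 6.89, 7.16 and 8.07 in wild type hearts. The return came in the dark phase. At ZT18 the signal was 8.02, 8.10, 8.34 and 8.73 in knockout hearts and 7.71, 7.84, 8.03 and 8.29 in wild type hearts. At ZT21 the knockout hearts were tightly grouped, at 8.62, 8.67, 8.71 and 8.95, and the wild type hearts were spread widely, at 7.75, 7.98, 9.02 and 9.31. At ZT0 knockout hearts held 9.38, 9.39, 9.49 and 9.94, and wild type hearts 9.21, 9.50, 9.73 and 10.21.

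**Figure D1:**
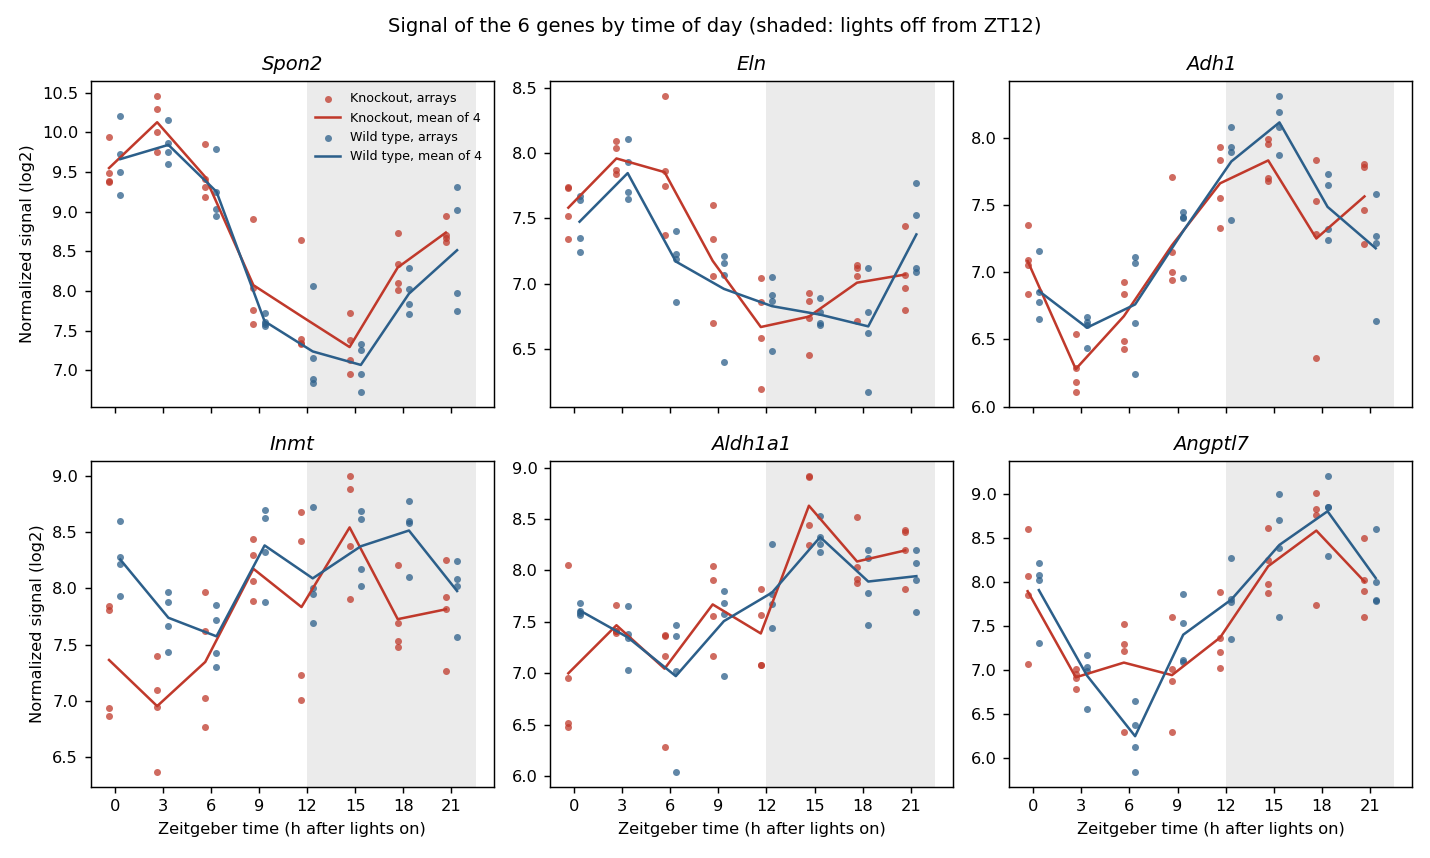
Normalized signal (log2, y axis) of the 6 genes against zeitgeber time (hours after lights on, x axis). Each point is 1 array (knockout circles in red, set slightly left; wild type in blue), lines join the means of 4 arrays, and grey marks the dark phase; the highest group mean is at ZT3 for Spon2 and Eln and at ZT15 or ZT18 for the other 4 genes in both genotypes.

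Eln encodes elastin, the protein that gives arteries and other tissues their recoil. It ran nearly in step with Spon2, with a narrower swing. At ZT3 Eln was at 7.84, 7.87, 8.04 and 8.09 in knockout hearts, against 7.65, 7.70, 7.93 and 8.11 in wild type hearts. At ZT12 it was at 6.19, 6.58, 6.86 and 7.04 in knockout hearts, against 6.48, 6.87, 6.91 and 7.05 in wild type hearts. All ZT3 hearts of a genotype lay above all its ZT12 hearts. At ZT6, 3 of the 4 knockout hearts were above every wild type heart, with 7.37, 7.75, 7.86 and 8.44 in knockout hearts against 6.86, 7.19, 7.23 and 7.40 in wild type hearts. That is the time at which the genotypes lay farthest apart (0.69 ± 0.20, SE, knockout minus wild type). The lowest knockout heart, the widely spread replicate 2, was still below the highest wild type heart. The fitted peak was at ZT3.1 ± 0.5 in knockout and at ZT2.0 ± 0.6 in wild type hearts (SE, h), and the amplitude was 0.62 in knockout and 0.49 in wild type hearts (each ± 0.07, SE).

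The other genes of the elastic fibre were tested in the same fit. Of 26 listed genes for elastin crosslinking, microfibrils and their assembly, 16 were measured, and 1 of them, Loxl1, passed the rhythm test in knockout and in wild type hearts. Loxl1 encodes a lysyl oxidase that crosslinks elastin. Its amplitude was 0.23 in knockout and 0.29 in wild type hearts (each ± 0.05, SE), with peaks at ZT6.4 in knockout and ZT5.2 in wild type hearts. Over all probes 1.17% passed the rhythm test in knockout hearts, 3.55% in wild type hearts and 0.702% in both. In the level averaged over the day 7 of the 16 rose and 3 fell, where 17% of all probes rose and 17.4% fell. Their median difference was 0.14 beside −0.01 over all probes, and with the arrays scaled to a common median 10 rose and 2 fell. That scaling shifted probes in general. Over all probes the median difference became 0.06, and 2969 of the 3793 probes called were higher in knockout hearts. List counts with median scaling, here and below, stand beside that shift. Adamtsl2, which encodes a microfibril-binding protein, rose by 0.58 ± 0.09 and Mfap4, a microfibril-associated glycoprotein gene, by 0.47 ± 0.08 (log2, SE; adjusted p = 2.8e-07 and 1.5e-06). The Adamtsl2 probe was detected on 25 of 32 knockout and 8 of 32 wild type arrays. Emilin2, which encodes an elastin microfibril interface protein, fell by 0.57 ± 0.06 (SE, adjusted p = 1.3e-11), and Fbln1, which encodes the elastic fibre protein fibulin 1, fell by 0.32 ± 0.04 (SE, adjusted p = 7.8e-09). Of 16 listed relatives of Spon2 among the spondins and thrombospondins, 6 were measured, and 0 passed the test of the 24 h mean or of rhythm by limma in either genotype.

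Angptl7, a secreted protein gene of the angiopoietin-like family known from the eye and from matrix remodelling, peaked in the dark phase. At ZT18 it was at 7.74, 8.76, 8.83 and 9.02 in knockout hearts, against 8.30, 8.86, 8.86 and 9.21 in wild type hearts. At ZT6 it was at 6.30, 7.22, 7.30 and 7.52 in knockout hearts, against 5.84, 6.13, 6.37 and 6.65 in wild type hearts. The genotypes overlapped at both times, though at ZT6 only by the lowest knockout heart, the widely spread replicate 2. The mean difference at ZT6 was 0.84 ± 0.29 (SE). Without background correction that difference was 0.38. At ZT3 the knockout hearts stood at 6.79, 6.91, 6.96 and 7.01 and the wild type hearts at 6.56, 6.99, 7.03 and 7.17, so that the lowest time was ZT3 in knockout and ZT6 in wild type hearts. The fitted peak was at ZT18.5 ± 0.5 in knockout and at ZT17.5 ± 0.4 in wild type hearts (SE, h). The amplitude was 0.79 in knockout and 1.03 in wild type hearts (each ± 0.11, SE), a 3.00-fold distance between peak and trough in knockout and a 4.14-fold distance in wild type hearts.

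The promoter of Angptl7 is shown with those of the enzyme genes because the 4 genes peak within about the same part of the night. RefSeq promoter windows (GRCm38.p6, 250 bases before to 50 after the transcript start, 5′ to 3′ on the gene's strand) were found for 4 of the 6 genes, Angptl7, Adh1, Aldh1a1 and Inmt. Capitals mark matches to any of the motifs searched on both strands, which were the E-box CACGTG bound by CLOCK and BMAL1, the E-prime box CACGTT, the D-box TTANNTAA, the nuclear receptor site AGGTCA, the glucocorticoid receptor palindrome, the cyclic AMP response element TGACGTCA and the heat shock pair GAANNTTC. No match in the Angptl7 window says only that these letters are not in it. It lies at chr4:148500413-148500712 on the minus strand.
Angptl7: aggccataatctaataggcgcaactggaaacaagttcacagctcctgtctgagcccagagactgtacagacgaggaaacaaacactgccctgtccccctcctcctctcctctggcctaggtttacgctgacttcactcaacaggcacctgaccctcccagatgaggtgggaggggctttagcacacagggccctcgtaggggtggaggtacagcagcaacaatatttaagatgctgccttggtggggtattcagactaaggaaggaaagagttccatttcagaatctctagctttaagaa

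A list drawn around Angptl7 was looked at next. It holds angiopoietins, angiopoietin-like genes, the receptor genes Tek and Tie1, and other genes such as Mfap4 and Fgl2. Of its 13 genes, 8 were measured and 0 passed the rhythm test in either genotype. In the 24 h mean 1 of 8 rose and 4 fell, beside 17% and 17.4% of all probes. The gene that rose was Mfap4, named above with the elastic fibre, and those that fell were Angptl1, Tek, Angpt1 and Angpt2. With median scaling 2 rose and 2 fell. Angptl1, which encodes another secreted member of the family, fell by 0.69 ± 0.08 (log2, SE, adjusted p = 2.3e-11).

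Adh1 encodes a class I alcohol dehydrogenase that oxidises ethanol and retinol. It was nearly the mirror image of Spon2. At ZT15 its first probe read 7.68, 7.70, 7.95 and 7.99 in knockout hearts, against 7.87, 8.08, 8.19 and 8.31 in wild type hearts. At ZT3 it read 6.11, 6.18, 6.29 and 6.54 in knockout hearts, against 6.44, 6.61, 6.63 and 6.67 in wild type hearts. All hearts at ZT15 were above all hearts at ZT3 in both genotypes, and the genotypes overlapped at both times. The fitted peak was at ZT15.6 in knockout and at ZT14.6 in wild type hearts (each ± 0.5 h, SE), and the amplitude was 0.60 in knockout and 0.68 in wild type hearts (each ± 0.08, SE). The second, dimmer probe, detected on 30 of 32 knockout and 28 of 32 wild type arrays, peaked at ZT15.1 in knockout and ZT15.0 in wild type hearts, with amplitudes of 0.37 in knockout and 0.52 in wild type hearts (each ± 0.10, SE). It was the more different between genotypes at ZT15, at 6.61, 6.63, 6.90 and 6.91 in knockout hearts and 6.99, 7.14, 7.21 and 7.35 in wild type hearts, with all 4 knockout hearts below all 4 wild type hearts. Over all probes 5.54% were placed in that way at ZT15, and the first Adh1 probe was not among them.

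The Adh1 window, at chr3:138277335-138277634 on the plus strand, was the only one of the windows found to hold matches. The E-box lies at bases 255 to 260 of the window, just past the transcript start, and the heat shock pair at bases 3 to 10. An E-box stood in 7.2% of 32851 RefSeq promoter windows of the same length and a heat shock pair in 7.9%. These matches describe the letters and do not show that a factor binds there.
Adh1: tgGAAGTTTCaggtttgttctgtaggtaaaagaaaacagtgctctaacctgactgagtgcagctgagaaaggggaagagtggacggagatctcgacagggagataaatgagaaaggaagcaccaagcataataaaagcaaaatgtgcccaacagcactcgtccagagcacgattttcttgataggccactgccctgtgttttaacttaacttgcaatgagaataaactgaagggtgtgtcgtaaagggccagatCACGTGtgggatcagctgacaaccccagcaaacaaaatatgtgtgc

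Aldh1a1 encodes a retinaldehyde dehydrogenase, which takes the step after alcohol dehydrogenase in the making of retinoic acid. At ZT15 it stood at 8.25, 8.44, 8.91 and 8.92 in knockout hearts, against 8.18, 8.26, 8.33 and 8.53 in wild type hearts. At ZT6 it was at 6.28, 7.17, 7.36 and 7.37 in knockout hearts, against 6.04, 7.02, 7.36 and 7.47 in wild type hearts. Each genotype thus had 1 low heart at ZT6 (knockout replicate 2 and wild type replicate 1, both widely spread arrays), and all hearts at ZT15 lay above all hearts at ZT6. At ZT0, 3 knockout hearts were below every wild type heart and 1 was above them, at 6.48, 6.52, 6.95 and 8.05, against 7.57, 7.59, 7.61 and 7.68 in wild type hearts. The mean difference at ZT0 was −0.61 ± 0.26 (SE). The fitted peak was at ZT16.6 ± 0.6 in knockout and at ZT16.9 ± 0.7 in wild type hearts (SE, h), and the amplitude was 0.60 in knockout and 0.50 in wild type hearts (each ± 0.09, SE). RefSeq gives Aldh1a1 a pair of promoter windows, of which the one at chr19:20601718-20602017 on the plus strand is printed to set beside Adh1. Neither window held a match to the motifs.
Aldh1a1: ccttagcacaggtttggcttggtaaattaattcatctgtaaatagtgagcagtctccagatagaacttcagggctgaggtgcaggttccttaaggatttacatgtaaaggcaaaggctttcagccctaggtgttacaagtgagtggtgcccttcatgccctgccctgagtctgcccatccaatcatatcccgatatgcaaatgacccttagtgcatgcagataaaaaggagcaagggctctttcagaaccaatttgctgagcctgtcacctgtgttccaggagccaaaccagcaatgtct

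**Figure D2:**
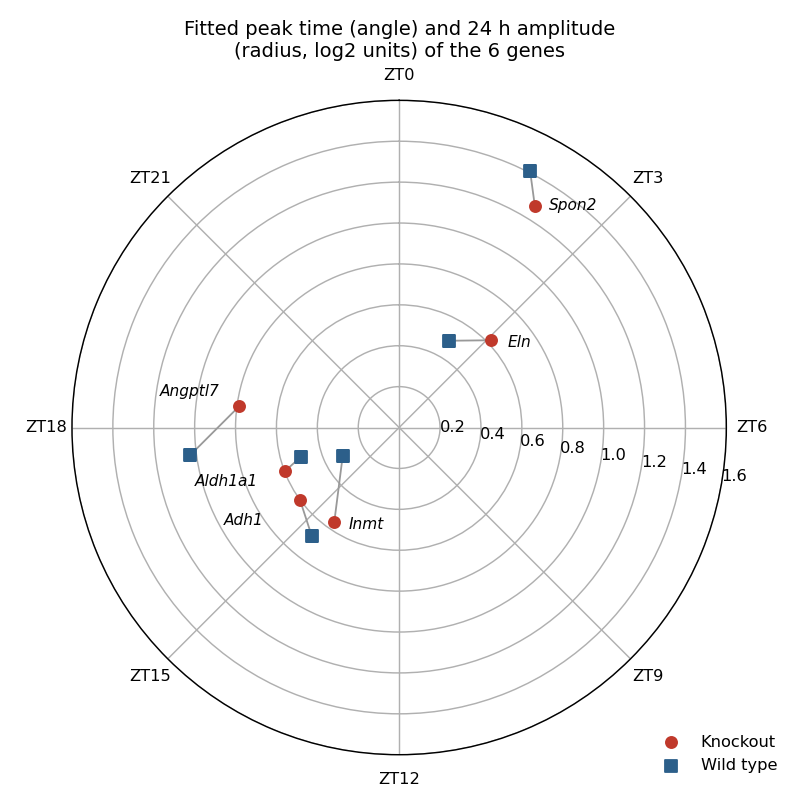
Clock plot of the 6 genes, in which the angle is the fitted peak (zeitgeber time, h), the distance from the centre is the fitted 24 h amplitude (log2 units), and a line joins each knockout circle to the wild type square of the same gene (Adh1 by its brighter probe). Spon2 and Eln lie near ZT2 to ZT3, the other 4 genes between ZT14 and ZT19, and Inmt has the widest gap in peak time.

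The size of these swings depends on how background is removed. Without background correction the amplitudes of the 6 genes ran between 0.31 and 0.95 in knockout and between 0.21 and 1.02 in wild type hearts, against 0.56 to 1.27 in knockout and 0.31 to 1.41 in wild type hearts with it. Those of Eln, for example, became 0.34 in knockout and 0.26 in wild type hearts. Over all probes the median amplitude was 0.09 in each genotype. Of the 56 comparisons of a probe between genotypes at a single time, 3 showed no overlap between the 4 knockout and the 4 wild type hearts, counted in either direction. Of all probes, between 3.3% and 7.67% did so in a single direction at a given time. The share of all probes in both directions together is therefore larger than in each alone. Choosing genes that are alike in both genotypes also lowers their count.

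Retinoid genes other than Adh1 and Aldh1a1 were tested as a list. Of 39 listed genes of retinoid metabolism and signalling, 16 were measured, 0 passed the rhythm test in knockout hearts and 1, Rarb, passed it in wild type hearts (1.17% of all probes in knockout and 3.55% in wild type hearts). Rarb encodes a retinoic acid receptor that is itself a target of retinoic acid. Its amplitude was 0.19 in knockout and 0.31 in wild type hearts (each ± 0.05, SE), with peaks at ZT19.7 in knockout and ZT18.8 in wild type hearts, and its difference of rhythm, a test that 0.24% of all probes passed, did not pass (adjusted p = 1). In the 24 h mean 1 of 16 rose and 2 fell, below the 34.4% of all probes called in either direction, and with median scaling 2 rose and 1 fell. Rarb was the one farthest apart, lower by 0.36 ± 0.05 in knockout hearts (log2, SE, adjusted p = 7.1e-08). Among 15 measured genes of alcohol and aldehyde oxidation, of 21 listed, 0 passed the rhythm test by limma in either genotype, 4 rose and 5 fell beside 17% and 17.4% of all probes, and with median scaling 5 rose and 2 fell. Aldh2, the mitochondrial acetaldehyde dehydrogenase gene, fell by 0.56 ± 0.03 (log2, SE, adjusted p = 2.0e-22).

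Inmt encodes indolethylamine N-methyltransferase, which methylates small amines and is abundant in lung. Of the 6 genes it had the widest gap in peak time between genotypes, and a gap in amplitude about as wide as that of Angptl7. At ZT15 it was at 7.91, 8.38, 8.88 and 9.00 in knockout hearts, against 8.02, 8.17, 8.62 and 8.69 in wild type hearts. At ZT3 it was at 6.37, 6.95, 7.10 and 7.40 in knockout hearts, against 7.44, 7.67, 7.88 and 7.97 in wild type hearts. At ZT0 it was at 6.87, 6.94, 7.81 and 7.84 in knockout hearts, against 7.93, 8.22, 8.28 and 8.60 in wild type hearts. At ZT0 and at ZT3 all 4 knockout hearts lay below all 4 wild type hearts, as did 6.86% of all probes at ZT0 and 5.48% at ZT3, whereas at ZT15 the groups overlapped.

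At ZT18 Inmt was at 7.48, 7.53, 7.69 and 8.21 in knockout hearts, against 8.10, 8.58, 8.60 and 8.78 in wild type hearts, with 3 knockout hearts below every wild type heart. The wild type mean was highest at ZT18 (8.51) and was still 8.26 at ZT0. The knockout mean was highest at ZT15 (8.54) and was 7.73 at ZT18. The amplitude was 0.56 in knockout and 0.31 in wild type hearts (each ± 0.11, SE), and the fitted peak was at ZT14.3 ± 0.8 in knockout and at ZT16.2 ± 1.4 in wild type hearts (SE, h). Fitted on ZT0, 6, 12 and 18 alone, the peak was at ZT14.6 in knockout and ZT18.7 in wild type hearts, and on ZT3, 9, 15 and 21 alone it was at ZT14.2 in knockout and ZT12.8 in wild type hearts. The amplitude was 0.30 in knockout and 0.48 in wild type hearts on the first set of times and 0.81 in knockout and 0.38 in wild type hearts on the other, so both the order of the amplitudes and the wild type peak were loosely placed. Its amplitude rank among 8449 named genes was 14 in knockout and 155 in wild type hearts. The other 5 genes held ranks between 2 and 12 in knockout and between 5 and 37 in wild type hearts. These ranks describe a value used in the selection. Of 23 listed genes, mostly small molecule methyltransferases and methionine cycle genes, 9 were measured and 0 passed the rhythm test by limma in either genotype. In the 24 h mean 1 of the 9 rose and 2 fell, near the 34.4% of all probes called, and with median scaling 2 rose and 2 fell. The gene that rose was Ethe1, which is neither a methyltransferase gene nor a methionine cycle gene. Gnmt, the glycine N-methyltransferase gene, had the smallest adjusted p (1.9e-11). It was above background on 0 of 32 knockout and 22 of 32 wild type arrays, with means of 4.96 in knockout and 5.73 in wild type hearts, and was at least 1.1-fold lower in knockout hearts, taking the dimmest detected signal of each array as a floor. As3mt, an arsenic methyltransferase gene, fell by 0.48 ± 0.10 (log2, SE, adjusted p = 1.3e-04). The Inmt window, at chr6:55174941-55175240 on the minus strand, held no match to the motifs.
Inmt: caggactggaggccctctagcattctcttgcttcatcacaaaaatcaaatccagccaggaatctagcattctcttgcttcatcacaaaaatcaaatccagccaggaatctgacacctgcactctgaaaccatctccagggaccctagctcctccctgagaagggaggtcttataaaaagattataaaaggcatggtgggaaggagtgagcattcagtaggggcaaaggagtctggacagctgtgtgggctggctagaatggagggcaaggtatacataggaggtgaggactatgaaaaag

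The level averaged over 24 h is independent of the rhythm in this balanced design and was tested for each probe. Of the 7 probes, 1 was higher (Spon2) and 1 lower (Inmt) in knockout hearts at an adjusted p under 0.05. Over all 12101 probes 34.4% were called, 17% higher and 17.4% lower, so that 2 of 7 is near the share of probes in general. Inmt averaged 7.72 in knockout and 8.11 in wild type hearts, a difference of −0.39 ± 0.11 (SE, 95% interval −0.61 to −0.17, adjusted p = 0.00335), or 1.31-fold lower, and its mean was lower at 7 of 8 times. Within the time sets the difference was −0.54 at ZT0, 6, 12 and 18 (adjusted p = 0.00918) and −0.25 at ZT3, 9, 15 and 21 (adjusted p = 0.17). The change of the Inmt difference between time sets did not pass by limma (−0.3, adjusted p = 0.692), as for 0 of all probes it did. Spon2 averaged 8.65 in knockout and 8.40 in wild type hearts, a difference of 0.25 ± 0.10 (SE, 95% interval 0.05 to 0.46, adjusted p = 0.0451), or 1.19-fold, and its mean was higher at 7 of 8 times. Within the time sets it was 0.21 (adjusted p = 0.282) and 0.30 (adjusted p = 0.157), and leaving out single arrays ended the call in 30 of 64 cases, 12 of them knockout and 18 wild type arrays (adjusted p 0.0218 to 0.0755). The call thus rests close to the threshold.

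The other 4 genes did not pass. Eln differed by 0.12 ± 0.07 (SE, 95% interval −0.03 to 0.27, adjusted p = 0.206), and with arrays scaled to a common median it passed at 0.21 (adjusted p = 0.0459). Aldh1a1 differed by 0.01 ± 0.09 (SE, 95% interval −0.18 to 0.20, adjusted p = 0.939). Angptl7 differed by −0.07 ± 0.11 (SE, 95% interval −0.29 to 0.15, adjusted p = 0.65). Adh1 differed by −0.07 ± 0.08 (SE, 95% interval −0.24 to 0.09, adjusted p = 0.541) by its brighter probe and by 0.04 ± 0.10 (SE, adjusted p = 0.806) by the dimmer one. These intervals leave room for shifts of up to about the size seen for Spon2.

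**Figure D3:**
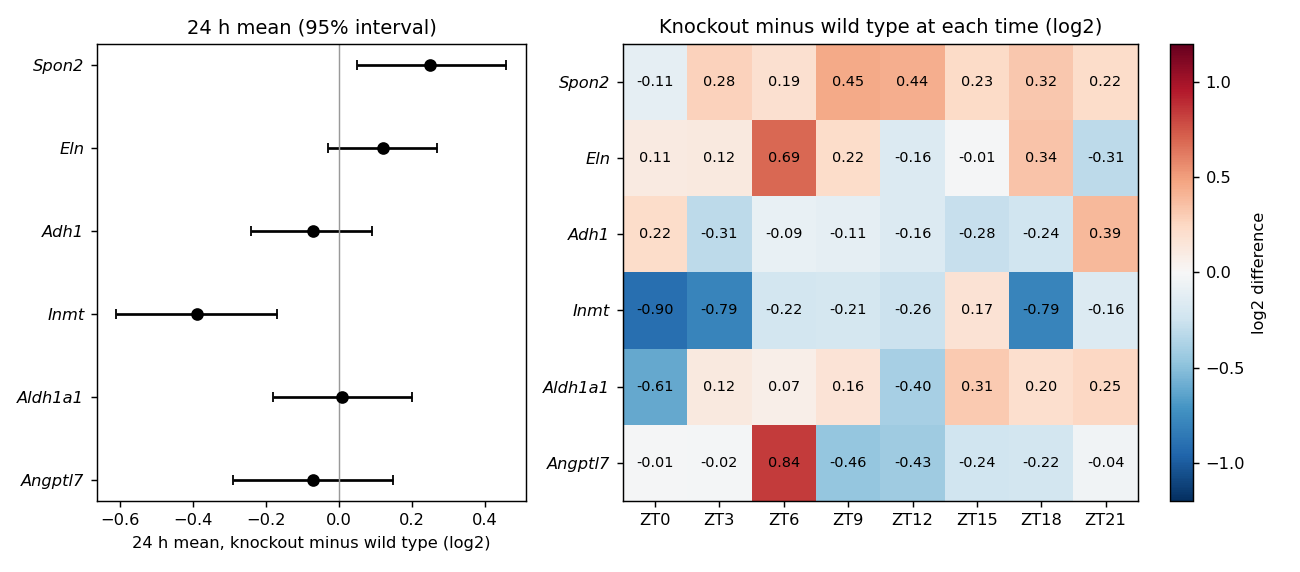
Left, the difference of the 24 h mean (knockout minus wild type, log2; points are fitted values and bars 95% intervals) for the 6 genes. Right, the difference of the means of 4 arrays at each zeitgeber time (log2, red higher and blue lower in knockout); Inmt is lower at 7 of 8 times and Spon2 higher at 7 of 8.

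Markers of other cell types were tested in the same way, where 17% of all probes rose and 17.4% fell. Of 13 measured myeloid markers 0 rose and 7 fell, and 1 fell with median scaling, where 78.3% of all probes called were higher. Their summed linear signal ranged over 4420 to 8035 in knockout and 4880 to 9481 in wild type hearts. Of 12 measured endothelial markers 0 rose and 5 fell (summed signal 16644 to 22931 in knockout and 17591 to 23969 in wild type hearts), and with median scaling 0 fell. Of 13 measured fibroblast markers 4 rose (Mfap5, Col1a1, Pi16 and Lum) and 0 fell, with a summed signal of 19754 to 28500 in knockout and 20344 to 27192 in wild type hearts. Their part in the lower Inmt and the higher Spon2 was not tested. Of lung epithelium, 1 of 12 listed markers passed the filter on low signal, with a summed signal of 31 to 57 in knockout and 28 to 53 in wild type hearts.

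A second harmonic, a component with a 12 h period, was not detectable in any of the 6 genes. In knockout hearts 0 of 7 probes passed (adjusted p 0.526 to 0.857), in wild type hearts 0 of 7 (adjusted p = 1 each), and for the difference between genotypes 0 of 7 (adjusted p 0.556 to 0.968), all by limma. Over all probes 0% passed in knockout hearts, 0.0165% (2 probes) in wild type hearts and 0% for the difference. The unadjusted p was under 0.05 for 1127 probes in knockout hearts, 430 in wild type hearts and 1081 for the difference. Fitted 12 h amplitudes of the brighter probe of each gene ran up to 0.26 in knockout hearts, for Adh1, and up to 0.21 in wild type hearts, for Spon2.

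By time course the 6 genes fall into a light phase pair and a night group of 4. Over the 16 group means, which the 6 genes share, Pearson's r was 0.90 for Spon2 and Eln, −0.91 for Spon2 and Adh1, and −0.89 for Eln and Adh1. Within the night group r ranged from 0.52 for Angptl7 and Inmt to 0.70. These values describe the shared daily course that chose the genes. Among all named genes tested, those closest to Spon2 were Sh3pxd2b (r = 0.917 over 16 group means), an adaptor gene of invadopodia, Eln (0.900) and Mmp14 (0.856), a membrane-bound matrix metalloproteinase gene. The closest to Eln were Spon2, Mmp14 (0.825) and Sh3pxd2b (0.810). Sh3pxd2b was dim, detected on 24 of 32 knockout and 27 of 32 wild type arrays. It passed the rhythm test in wild type hearts only. Mmp14 had an amplitude of 0.52 in knockout and 0.49 in wild type hearts (each ± 0.07, SE).

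In the night group Angptl7 was closest to Gsta3 (r = 0.937), a glutathione transferase gene, Gm4956 (0.932) and Paqr7 (0.883), a membrane progestin receptor gene. Gm4956 was detected on 17 of 32 knockout and 22 of 32 wild type arrays. Gsta3 swung by 0.81 in knockout and 0.84 in wild type hearts (each ± 0.06, SE), close to the amplitude of Angptl7 in knockout hearts. Adh1 was closest to Per2 (0.876), a clock repressor, Timp3 (0.876), a metalloproteinase inhibitor gene, and Mcf2l (0.868). Inmt was closest to Timp3 (0.851), Smarca1 (0.842), detected on only 5 of 32 knockout arrays, and Sult1a1 (0.836), a sulfotransferase gene. Aldh1a1 was closest to Rbm15 (0.921), Manea (0.887) and Sulf1 (0.860), all with amplitudes between 0.13 and 0.18 and none past the rhythm test in either genotype (adjusted p 0.15 to 0.516).

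The 2 kinds of genes set beside the 6 were the clock itself and genes known to follow systemic signals. Over all probes 1.17% passed the rhythm test in knockout hearts, 3.55% in wild type hearts, and 0.24% had a different rhythm. Of 13 measured core clock genes 5 passed in knockout and 10 in wild type hearts, and the rhythm of 3 differed. Of 11 measured clock output genes 2 passed in knockout and 10 in wild type hearts, and the rhythm of 6 differed. The repressor gene Ciart, named after its values were seen, had an amplitude of 0.39 in knockout and 1.5 in wild type hearts (adjusted p of the difference 8.3e-05). Its probe was detected on only 7 of 32 knockout and 17 of 32 wild type arrays, so many of its values lie near background. Dbp, an output transcription factor gene, swung by 1.41 in knockout and 1.86 in wild type hearts, Nr1d1, which encodes the repressor REV-ERB alpha, by 0.86 in knockout and 1.25 in wild type hearts, and its relative Nr1d2 by 0.83 in knockout and 0.66 in wild type hearts (log2 amplitudes). The difference of rhythm passed for Nr1d1 (adjusted p = 0.0236) and not for Dbp (0.0594) or Nr1d2 (1). Per3, detected on only 4 of 32 knockout and 16 of 32 wild type arrays, swung by 0.41 in knockout and 0.70 in wild type hearts (adjusted p of the difference 0.945). Per2, which shares the timing of Adh1, had an amplitude of 1.01 in knockout and 1.49 in wild type hearts (each ± 0.11, SE), and its difference of rhythm did not pass (adjusted p = 0.143). Of 17 measured glucocorticoid-responsive genes 3 passed the rhythm test in knockout and 7 in wild type hearts, and the rhythm of 1 differed between genotypes. The 3 that passed in knockout hearts were Tsc22d3, Errfi1 and Cdkn1a. Tsc22d3, a glucocorticoid-induced gene also called GILZ, had an amplitude of 0.22 in knockout and 0.30 in wild type hearts (each ± 0.05, SE), with peaks at ZT15.6 in knockout and ZT16.3 in wild type hearts. Errfi1, a feedback inhibitor gene of the EGF receptor, peaked at ZT23.0 in knockout and ZT0.5 in wild type hearts. Cdkn1a, which encodes the cell cycle inhibitor p21, peaked at ZT17.4 in knockout and ZT1.0 in wild type hearts, a rhythm that differed (adjusted p = 2.9e-07). Of 14 measured temperature- and heat-responsive genes 0 passed in knockout hearts and 1, Cirbp, in wild type hearts. The amplitude of Cirbp was 0.29 in knockout and 0.33 in wild type hearts (each ± 0.08, SE), with peaks at ZT11.6 and ZT11.2. Its rhythm test by limma gave an adjusted p of 0.0872 in knockout and 0.0196 in wild type hearts, and its difference of rhythm did not pass. Whether these signals set the rhythm of the 6 genes was not tested.

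Hearts taken at the same time from the same genotype differ from each other, and these deviations from the group mean were not used in choosing the genes. Of the 15 pairs of genes, 1 pair deviated together past the threshold: Angptl7 and Inmt. Over 64 arrays Pearson's r was 0.50 and Spearman's rho 0.49 (two-sided permutation test within groups with 100000 permutations, p = 1.20e-04, adjusted p = 0.00528 for r and 0.0099 for rho over the 99 relations computed). It was 0.50 in knockout and 0.52 in wild type hearts, and 0.52 and 0.49 in the time sets (adjusted p = 0.137 and 0.221). Without the 2 arrays farthest from the median of Angptl7, r was 0.47 (adjusted p = 0.0292), and without the 4 widely spread arrays it was also 0.47 (adjusted p = 0.0718). A heart with more Angptl7 than others of its group thus tended to hold more Inmt, and the call, though not the size, depends on the widely spread arrays.

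**Figure D4:**
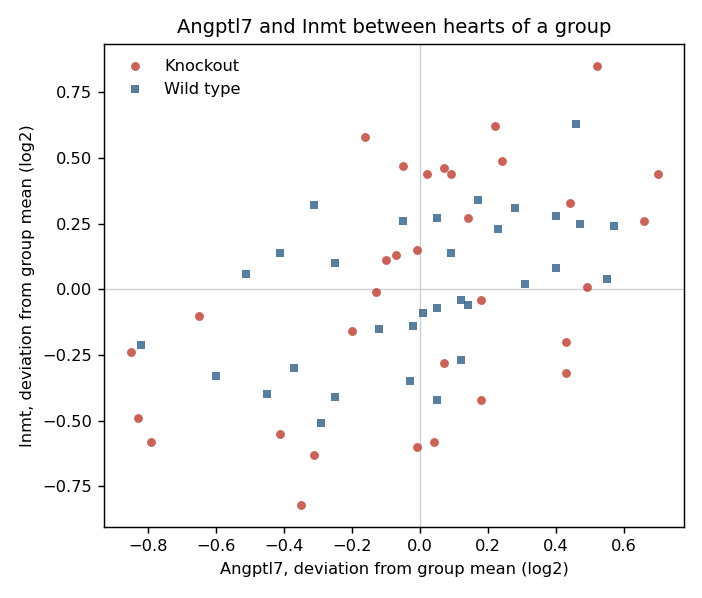
Deviation of Inmt from its group mean (y axis, log2) against that of Angptl7 (x axis, log2), each point 1 array (32 knockout circles, 32 wild type squares). The points rise together in both genotypes, with r = 0.50 in knockout and 0.52 in wild type hearts.

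Spon2 and Eln, which share a daily course, did not deviate together detectably between hearts (r = 0.17, rho = 0.20, permutation adjusted p = 0.575 for r). Each gene was also set against the mean deviation of 14 lists of cell type markers, and 2 of those 84 relations passed. Angptl7 went with the markers of valve and endocardium (r = 0.56, rho = 0.52, adjusted p = 0.00528), and within the time sets r was 0.49 and 0.67 (adjusted p = 0.155 and 0.146). Of 8 measured markers on that list 0 rose and 3 fell in the 24 h mean, beside 17% and 17.4% of all probes, and with median scaling 1 fell. Aldh1a1 went with myeloid markers (r = 0.64, rho = 0.52, adjusted p = 0.00528), with r = 0.77 in one time set and 0.28 in the other (adjusted p = 0.0178 and 0.703). Without the 2 arrays farthest from the median of Aldh1a1 its r was 0.42 (adjusted p = 0.181), so the relation rests on those arrays. Without the 4 widely spread arrays the 2 marker relations were at 0.46 (adjusted p = 0.0729) for Angptl7 and 0.54 (adjusted p = 0.104) for Aldh1a1.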

How the data were processed

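Whole-heart RNA of 64 samples was hybridised to MouseRef-8 v2 BeadChips, in which beads carry gene-specific probes, per the labels. The scanner values are deposited, per the file headers, as an average bead intensity for each probe and array, with a detection p-value that compares the probe with negative controls; no normalization is visible in them. No label or header read here names the scanner software. A processed intensity table that the authors deposited was used as an alternative.

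Background was removed with the normexp model, using the deposited detection p-values and an offset of 16, arrays were quantile normalized, and log2 was taken of the deposited intensities. A probe was kept if its detection p was below 0.01 on 4 arrays or more, which left 12101 of 25697. The platform annotation gave 23978 probes 1 symbol, 0 several and 1719 none.

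Each probe was fitted over all 64 arrays with limma 3.58.1 in R 4.3.3 by a mean, cosine and sine of 24 h per genotype and a term for the time set. A 12 h cosine and sine were added for the second harmonic. Benjamini-Hochberg adjustment covered the 12101 probes, with a threshold of 0.05, and for the 99 relations between hearts over those relations, computed in Python 3.11.15 with NumPy 2.4.6. The fits were tested on simulated data. All probes were kept, since the genes were chosen with all their probes. Where a gene other than the 6 has several probes, its brightest one is named. Members and lists were chosen with earlier results of these data known. Genes outside the 6 were named by rule: the 3 closest in group means to each, Arntl, up to 4 members of a pathway list by smallest adjusted p (not all are printed), Dbp, Nr1d1, Nr1d2, Per2 and Per3, while Ciart, Tsc22d3, Errfi1, Cdkn1a, Cirbp and 4 fibroblast markers were chosen after their values were seen.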

Additional observations from a re-analysis of the deposited data

Results flagged for a closer look

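In 3 of 112 groups of 4 arrays a single array stood far from the other 3, by Dixon's criterion at the 95% level, for which chance gives about 1 group in 20 (5.6 groups expected). For Spon2, knockout ZT12 replicate 108 was at 8.65, and the other 3 knockout hearts of that time lay between 7.33 and 7.40. For Aldh1a1, knockout ZT3 replicate 167 was at 7.66, and the others lay between 7.39 and 7.41. For Adh1, wild type ZT9 replicate 209 was at 6.96 on the brighter probe, and the others lay between 7.40 and 7.45. All values are normalized log2 signals.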

How the results depend on the processing

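Without background correction the fitted amplitudes of the 6 genes shrank by more than their SE, except that of Inmt in wild type hearts (0.21, against 0.31). The lower Inmt kept its direction in every alternative and its call in all but ZT3, 9, 15 and 21 alone (−0.25, adjusted p = 0.17); leaving out 1 array gave −0.42 to −0.36. The higher Spon2 lost its call without background correction (0.17, adjusted p = 0.0740), with no filter (0.25, 0.0879), with no time set term (0.25, 0.0552) and in either time set alone (0.21 and 0.30), and leaving out 1 array gave 0.22 to 0.28. With median scaling Eln passed at 0.21. Signs turned for Angptl7 (0.01 with median scaling, 0.04 in ZT0, 6, 12 and 18 alone), Adh1 (0.01 with median scaling), its dimmer probe (−0.14 in ZT3, 9, 15 and 21 alone) and Aldh1a1 (−0.19 in ZT0, 6, 12 and 18 alone, −0.02 to 0.04 with 1 array left out). Of the probes called in the 24 h mean 49.5% were higher in knockout hearts, and 78.3% with median scaling; in ZT3, 9, 15 and 21 alone 2377 probes were called, against 4159. The 12 h component of wild type hearts had 2 probes, 1 with the authors' values, with no filter, with 1 probe per gene or without the time set term, 0 when detected on at least 32 arrays, and 1 to 3 with 1 array left out. Of the 15 pairs, 7 passed with median scaling and 0 in either time set or without the widely spread arrays. Correlations that turned sign were Eln and Adh1 (0.12), Eln and Inmt (0.02) and Aldh1a1 and Adh1 (0.04) with median scaling, Spon2 and Aldh1a1 (−0.07) and Angptl7 and Eln (−0.16) in ZT3, 9, 15 and 21 alone, Spon2 and Aldh1a1 (−0.10) without the 2 farthest arrays, and Angptl7 and Eln (−0.01) and Aldh1a1 and Adh1 (0.00) without the widely spread arrays. The cause was not tested. No paired analysis was possible because each array carries a number of its own. The BeadChip was not used as a block, since the headers read here name no chip. The widely spread arrays, the per-time values and the lists under other normalizations were added after seeing the data.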
